A study of Mus musculus with 43 samples.

Results

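Acetylation of histone H3 at lysine 27 (H3K27ac) was profiled in WT C57BL/6J mouse testis at postnatal day 7 (P7) and postnatal day 14 (P14), and the 4 deposited H3K27ac peak lists, 2 per age, are compared here. They are 4 of the 43 samples of the series and 4 of its 33 CUT&Tag lists, and they were chosen by their labels alone. CUT&Tag uses an antibody to bring a transposase to the mark, so that DNA around it is cut out and sequenced. After digestion of the tubules with collagenase IV and trypsin, the cells passed a 40 μm strainer and were not sorted. The paper used the strainer to remove Sertoli cells and reports that germ cells far outnumbered somatic cells in the P7 filtrate. The P7 lists are labelled spermatogonia. For the P14 lists the sample titles also say spermatogonia, whereas the cell type field says spermatocyte, and the ages are therefore named by day only. Nothing in the labels says whether the 2 lists of an age came from separate animals, so the spread between them may be technical. No Prmt1 knockout or other H3K27ac treatment enters this comparison.

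H3K27ac is written by the acetyltransferases p300 and CBP, and it marks promoters in use as well as active enhancers, the distal elements that drive genes over a distance. H3K4me3, which was profiled in the same series, sits mainly at promoters. In the mouse testis the first wave of spermatogenesis runs in step, with spermatogonia as the main germ cells in the week after birth and spermatocytes in meiotic prophase appearing during the week after that. Sertoli cells nurse the germ cells within the tubule, and Leydig, peritubular myoid and immune cells lie around it.

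The P7 lists held 21974 and 23780 peaks and the P14 lists 37984 and 45817, merged into 84621 regions on the 21 main chromosomes. A region is a set of peaks that overlap among the 4 lists. It counts as promoter if a peak summit lies within 3000 bp of an annotated transcription start site (30924 regions), and otherwise as distal (53697 regions). A region is called gained if both P14 lists and neither P7 list hold it, and lost in the reverse case. Both words describe peak calls and are not a test.

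The sequences at the centre of leading gained and lost regions are shown as examples of each class. Here and below, the strongest regions are those ranked highest by −log10 p within the lists that hold them. They are 200 bp of the RefSeq GRCm38 genome, plus strand, centred on the highest summit of the region. The first pair are a leading gained promoter (at Sec16a, which encodes a scaffold of endoplasmic reticulum exit sites), whose window is free of annotated UTRs, and the strongest gained distal region (near Spag6, an axoneme gene). The next pair are the strongest lost promoter (at the predicted gene Gm17535) and lost distal region (nearest to Mat2b). The last 3 lie at gained promoters of germ cell genes, namely Kit, the receptor of differentiating spermatogonia, Rec8, a meiotic cohesin, and Ybx2, a germ cell mRNA-binding protein. Capitals mark the letters of a searched motif on either strand.
Sec16a (gained promoter, chr2:26445638-26445837): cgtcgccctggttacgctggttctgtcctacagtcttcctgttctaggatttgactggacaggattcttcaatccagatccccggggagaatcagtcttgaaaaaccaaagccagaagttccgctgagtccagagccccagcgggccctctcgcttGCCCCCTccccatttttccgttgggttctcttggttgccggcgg
Spag6 (gained distal, chr2:18689451-18689650): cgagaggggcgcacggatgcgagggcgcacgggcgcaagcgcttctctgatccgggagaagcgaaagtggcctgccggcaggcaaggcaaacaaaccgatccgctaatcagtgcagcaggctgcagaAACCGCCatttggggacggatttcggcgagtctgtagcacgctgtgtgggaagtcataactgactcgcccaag
Gm17535 (lost promoter, chr9:3033752-3033951): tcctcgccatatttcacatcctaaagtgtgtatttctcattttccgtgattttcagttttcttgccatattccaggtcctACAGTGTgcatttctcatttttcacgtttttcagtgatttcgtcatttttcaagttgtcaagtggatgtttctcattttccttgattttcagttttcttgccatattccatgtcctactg
Mat2b (lost distal, chr11:40210359-40210558): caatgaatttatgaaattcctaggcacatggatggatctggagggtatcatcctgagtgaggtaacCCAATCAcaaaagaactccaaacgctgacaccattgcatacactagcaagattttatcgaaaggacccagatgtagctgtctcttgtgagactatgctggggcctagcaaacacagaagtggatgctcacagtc
Kit (gained promoter, chr5:75574566-75574765): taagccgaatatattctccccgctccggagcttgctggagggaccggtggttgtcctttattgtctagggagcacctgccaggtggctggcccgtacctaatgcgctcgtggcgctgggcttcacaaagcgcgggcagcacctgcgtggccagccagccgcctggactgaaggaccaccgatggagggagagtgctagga
Rec8 (gained promoter, chr14:55619012-55619211): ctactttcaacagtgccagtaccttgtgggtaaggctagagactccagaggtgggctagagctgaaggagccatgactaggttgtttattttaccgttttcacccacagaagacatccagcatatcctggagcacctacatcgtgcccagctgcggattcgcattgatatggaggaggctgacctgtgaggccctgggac
Ybx2 (gained promoter, chr11:69935302-69935501): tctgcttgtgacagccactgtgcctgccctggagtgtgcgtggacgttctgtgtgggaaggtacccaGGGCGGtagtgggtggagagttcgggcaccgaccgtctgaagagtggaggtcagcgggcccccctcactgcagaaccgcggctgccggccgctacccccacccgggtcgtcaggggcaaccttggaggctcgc
The capitals read AGGGGGC (CTCF) on the minus strand at Sec16a, GGCNGTT (MYB) on the minus strand at Spag6, ACANTGT (DMRT) at Gm17535, CCAATCA (NF-Y) at Mat2b and CCGCCC (SP/KLF) on the minus strand at Ybx2. Kit and Rec8 held none of the 14 motifs searched in this window. GC content was 56.5% at Sec16a, 61.5% at Spag6, 62.5% at Kit, 52.5% at Rec8 and 67.5% at Ybx2, and it was 36.5% at Gm17535 and 45% at Mat2b. The Gm17535 window lies among the repeats at the assembled start of chromosome 9, where reads cannot be placed with certainty.

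The first question was how many promoter and distal peaks each age had and how wide they were. The P14 lists were longer at both kinds of site, and their promoter peaks were wider, whereas distal widths overlapped between the ages, a contrast that did not hold among peaks of q at most 0.01. Peaks on the main chromosomes numbered 21844 and 23670 at P7 and 37898 and 45727 at P14, that is 22757 ± 1291 against 41812 ± 5536 (SD, n = 2 per age). The ages did not overlap, but an exact permutation test of 2 lists against 2 cannot go below p = 0.333, which was its two-sided value here. Promoter peaks numbered 10884 and 12051 at P7 and 18431 and 20384 at P14, and distal peaks 10960 and 11619 at P7 and 19467 and 25343 at P14. Promoters therefore made up 49.8% and 50.9% of the P7 peaks and 48.6% and 44.6% of the P14 peaks. This order depended on list length, since the 21844 peaks of lowest p in each list gave promoter shares of 49.8% and 52.1% at P7 and 61.6% and 60.5% at P14. The difference, P14 minus P7, was -3.76 percentage points with all peaks, -0.013 among peaks with a summit at least 5 times the list background, and -5.79 and -1.74 without P14 replicates 1 and 2.

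**Figure D1:**
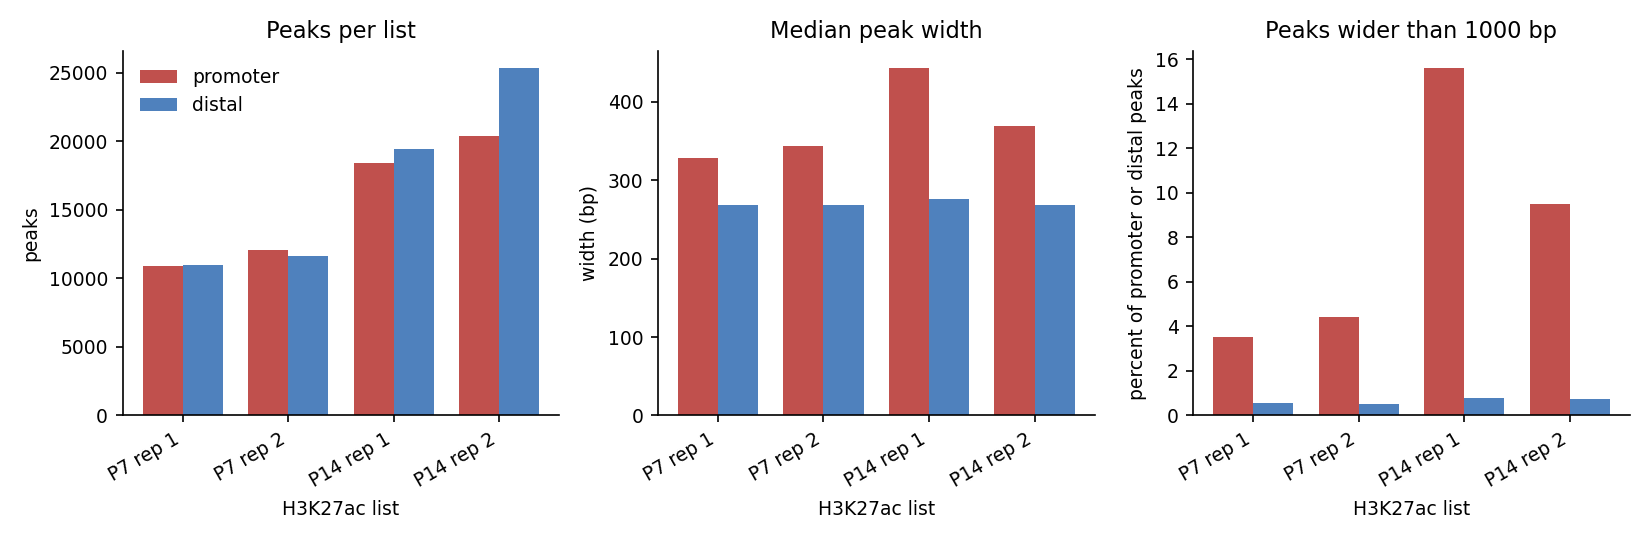
Peaks per list, median peak width in bp and percent of peaks wider than 1000 bp (panels) for promoter (red) and distal (blue) peaks of each H3K27ac list. Each bar is 1 list; median promoter widths were 328 and 344 bp at P7 and 443 and 369 bp at P14, and median distal widths lay between 268 and 276 bp in all 4 lists.

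Promoter peaks had a median width of 328 and 344 bp at P7 and of 443 and 369 bp at P14 (336 ± 11.3 against 406 ± 52.3 bp; SD, n = 2 per age; exact permutation p = 0.333). The difference of 70 bp became 33 bp without P14 replicate 1 and 107 bp without P14 replicate 2, and at equal list length it was 207.5 bp. The gap was larger in the tail. Promoter peaks wider than 1000 bp made up 3.52% and 4.42% of promoter peaks at P7 and 15.6% and 9.50% at P14, or 383 and 533 peaks against 2877 and 1936. Among distal peaks the same share was 0.566% and 0.525% at P7 and 0.806% and 0.718% at P14. Median distal widths were 268.5 and 269 bp at P7 and 276 and 268 bp at P14, so that the ages overlapped (difference 3.25 bp, exact permutation p = 1). Among peaks of q at most 0.01 it was the promoter widths that overlapped (67.5 bp, exact permutation p = 1), and distal peaks were narrower in both P14 lists (-39.75 bp, exact permutation p = 0.333). At equal list length distal widths separated as well (20.25 bp, exact permutation p = 0.333).

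Recurrence between the 2 lists of an age was higher at promoters than at distal sites. Of the promoter regions in either P7 list, 38.4% were in both (95% exact binomial interval 37.6 to 39.1%). Of those in either P14 list it was 42.6% (42.0 to 43.2%). Of the distal regions only 11.99% (11.5 to 12.4%) recurred at P7 and 11.7% (11.4 to 12.04%) at P14. These intervals cover counting error only, and neighbouring regions are not independent. A P7 list and a P14 list shared 30.8 to 36.1% of their promoter regions and 7.57 to 10.2% of their distal regions, but this share of the union is held down where the lists differ in length. Taken over 1 list, 54.9% of the promoter peaks of P7 replicate 1 recurred in P7 replicate 2, and 69.7% and 66.7% in the longer P14 lists. For P7 replicate 2 the values were 49.1% in P7 replicate 1 and 70.7% and 67.7% in the P14 lists. A single list held 17715 of the promoter and 44829 of the distal regions.

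All 4 lists held 5198 promoter regions (16.8% of promoter regions) and 1020 distal regions (1.90%). Gained promoter regions numbered 2943, or 9.52% of all promoter regions, and lost promoter regions 225, or 0.728%. Gained distal regions numbered 2425, or 4.52% of all distal regions, and lost distal regions 638, or 1.19%. Combinations of 1 P7 list with 1 P14 list alone, which follow no age, were counted in the same way. They held 346 to 478 promoter regions per pair, fewer than the gained and more than the lost promoters, and 650 to 826 distal regions per pair, fewer than the gained and more than the lost distal regions. With lists of equal length the counts were 1637 gained and 338 lost promoter regions and 697 gained and 907 lost distal regions, so the excess of gained over lost distal regions turned around, while that at promoters remained. Leaving out a list loosens the definition, and the gained promoters then numbered 4018 and 4697 without P7 replicates 1 and 2 and 10633 and 9202 without P14 replicates 1 and 2. The lost promoters numbered 2792, 2660, 553 and 376 in the same order. Gained distal regions reached 21220 and 15472 without P14 replicates 1 and 2, and lost distal regions 7533 and 7306 without P7 replicates 1 and 2 and 1055 without P14 replicate 1.

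**Figure D2:**
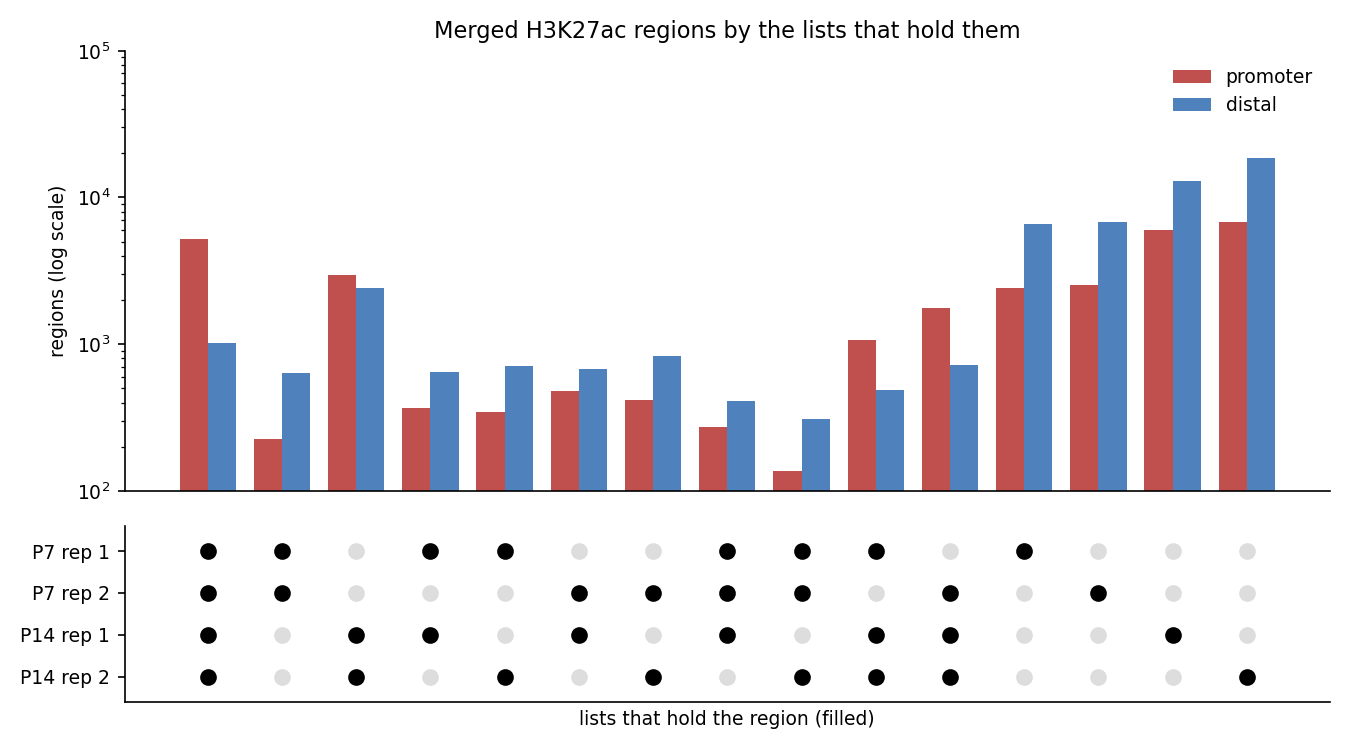
Number of merged H3K27ac regions (log axis) for each combination of lists that hold them, promoter regions in red and distal regions in blue; filled circles mark the lists. The combination of both P14 lists alone holds 2943 promoter and 2425 distal regions, and that of both P7 lists alone holds 225 and 638.

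The classes also differed in what the calls did not use, namely sequence and the other marks of the series. Gained promoters lay a median of 0.238 kb from a start site, near the 0.13 kb of promoters in all 4 lists, while lost promoters lay 1.08 kb away. The median CpG observed-to-expected ratio was 0.57 at gained, 0.83 at all-4-list and 0.19 at lost promoters, against 0.38 over all promoter regions. At distal regions it was 0.23 at gained and 0.15 at lost regions, against 0.18 over all. In 21.3% of lost promoters and 35.1% of lost distal regions, more than 50% of the 300 bp around the summit was repeat sequence. At gained regions this was 2.96% and 12%, and over all regions 6.70% and 16.4%.

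H3K4me3 was already present at most gained promoters at P7. A P7 H3K4me3 peak called in both lists overlapped 62.6% of gained promoters, and a P14 one 71.2%. Over all promoter regions the shares were 43.0% and 45.3%, at promoters in all 4 lists 95.8% and 96.6%, and at lost promoters 23.6% and 20%. At gained distal regions H3K4me3 was found on 5.61% at P7 and on 13.5% at P14, against 1.89% and 3.73% of all distal regions. The asymmetric arginine mark H4R3me2a overlapped 3.50% of gained promoters at P7 and 29.6% at P14, and 21.5% and 79.1% of promoters in all 4 lists, against 6.16% and 26.7% of all promoter regions. H3R2me2a, another asymmetric arginine mark, overlapped 2.14% of gained promoters at P7 and 33.4% at P14, against 4.03% and 28.8% of all promoter regions. The other 3 arginine marks were below the share of all promoter regions at P14, with H3R8me2a on 15.3% of gained and 17.96% of all, H4R3me1 on 12.9% and 15.7%, and H4R3me2s on 14.8% and 17.7%. At lost promoters H4R3me2a was found on 13.8% at P7 and 20% at P14. It was found on 19.4% and 28.7% of lost distal regions and on 45.7% and 57.5% of distal regions in all 4 lists, against 4.10% and 9.13% of all distal regions. The lists of these marks differ in length between the ages as well, so these shares are given as a description.

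Of the 14 short motifs, matched on both strands within 300 bp of sequence at the summit, CCGCCC (SP/KLF) was found in 33.8% of gained, 54.1% of all-4-list and 11.1% of lost promoters, against 25.8% of all promoter regions. The ETS letters CCGGAAGT were found in 2.51%, 5.06% and 0.444% of the same classes, against 1.80% of all. GGCNGTT, the core bound by MYB proteins such as the meiotic regulator Mybl1, was found in 13.0% of gained and 5.78% of lost promoters, against 11.8% of all. At distal regions it was found in 12.2% of gained and 6.74% of lost regions, against 10.03% of all. ACANTGT (DMRT) went the other way, with 6.42% of gained and 15.1% of lost promoters against 8.26% of all. GC content moves with these matches, with medians of 57% at gained and 48.7% at lost promoters, and its part was not tested. GTTGCCNNG (RFX) was found in 4.18% of gained promoters and 3.84% of all.

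The 6 strongest gained promoters lay at Ccdc115, Ino80c, Sec16a, Ankrd31, Kif23 and Nosip, each with H3K4me3 in both lists of both ages. The order is by −log10 p and need not follow height. Height is the reads at the summit divided by the background that the peak caller assumed for that list. The smallest height called at that background was 2.97 to 3.596. At Ccdc115 (chr1:34439157-34440234), 78 bp from the start site, height was 18.8 and 15.8 in the P14 lists, with no P7 peak. Kif23 (chr9:61946034-61947517), a kinesin of the cell division midbody, stood at 18.2 and 16.8. Ankrd31 (chr13:96748344-96749295), which is needed for meiotic double-strand breaks, stood at 13.6 and 12.4. Among the 6 strongest gained distal regions, that upstream of Spag6 (chr2:18688758-18689749, 4481 bp from the start site) reached 18.2 and 15.3. A region on the X chromosome (chrX:101695411-101696448), 38279 bp from the chemokine receptor gene Cxcr3, reached 16.5 and 15.3. The others lay at Arhgap21, Gm45194, AI481877 and Sp6, with heights of 7.91 to 13.1. H3K4me3 overlapped all 6 distal regions at P14 and all but that at Sp6 at P7, against 13.5% and 5.61% of all gained distal regions. These 6 are therefore not typical of gained distal regions, and whether they are promoters missing from the annotation was not tested.

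The strongest lost promoters were of another kind. The regions at Gm17535 (chr9:3033727-3033984) and Gm10721 (chr9:3010862-3011120) stood at 48.2 and 49.7 and at 49.4 and 46.1 in the P7 lists, and both lie in the repeats at the assembled start of chromosome 9. They were followed by Rubcn (11.2 and 10.8), an inhibitor of autophagy, Sfi1 (8.82 and 9.59), Nfkb1 (8.23 and 9.59), a subunit of the NF-κB factor, and Sntb1 (5.88 and 6.59). The strongest lost distal regions were nearest to Mat2b, Gm21060, Fam174a, Mctp1, Rere and Tspan9, with P7 heights of 7.64 to 14.7.

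In the 6218 regions that all 4 lists hold, height can be compared directly. Promoters were higher at P14 and distal regions were not. Median promoter height was 8.23 and 8.99 at P7 and 14.8 and 11.9 at P14, while median distal height was 7.64 and 7.79 at P7 and 7.96 and 7.42 at P14. The median log2 difference, P14 minus P7, was 0.60 at promoters, with 4884 of 5198 (94.0%) above 0, and -0.02 at distal regions. With limma across all 6218 regions and Benjamini-Hochberg adjusted p under 0.05, 1874 promoters (36.1%) rose and 35 (0.673%) fell. Among distal regions 33 (3.24%) rose and 96 (9.41%) fell. The median over all regions was itself shifted by 0.53, and relative to this shift promoters stood at 0.07 and distal regions at -0.55, with 33 promoters higher and 85 lower and 1 distal region higher and 244 lower. The counts by direction therefore rest on the scaling, whereas the gap between promoters and distal regions does not. More acetylation per cell and more cells with acetylation cannot be told apart in these suspensions. Without P7 replicates 1 and 2 in turn the promoters that rose numbered 58 and 329, and without P14 replicates 1 and 2 they numbered 1157 and 3016. The promoters that fell numbered 13, 22 and 55 without P7 replicate 1, P7 replicate 2 and P14 replicate 1, and the distal regions that fell 18, 47 and 159. The distal regions that rose numbered 1 and 5 without P7 replicates 1 and 2 and 75 without P14 replicate 2.

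**Figure D3:**
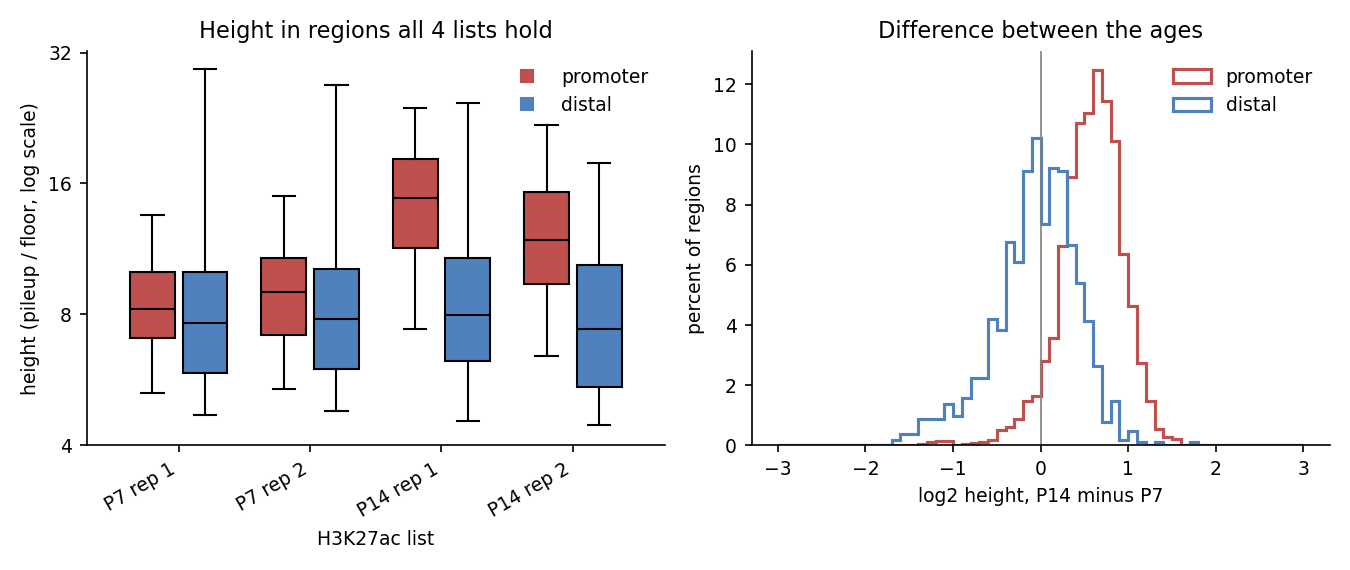
Left, summit height (reads over list background, log axis) in regions held by all 4 H3K27ac lists, with boxes from the lower to the upper quartile, the median as a line and whiskers at the 5th and 95th percentiles; right, percent of regions by log2 height difference, P14 minus P7. Promoters (red) centre on 0.60 and distal regions (blue) on -0.02.

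Among these regions the promoter of Tesmin, a testis gene of the metallothionein-like family expressed in spermatocytes, stood at 5.29 and 5.39 at P7 and at 21.03 and 19.8 at P14. Its log2 difference of 1.93 (SE 0.27, limma adjusted p = 0.00142) also passed relative to the overall shift. Arf2 (4.12 and 7.19 against 20.5 and 23.2), a small GTPase of vesicle traffic, and Ddx39 (8.23 and 8.99 against 24.4 and 25.2), an RNA helicase, rose with log2 differences of 2.003 and 1.53. The distal region that rose most surely lay 21341 bp from Zfp518a (4.70 and 4.79 against 17.6 and 14.3, log2 difference 1.74). These genes were taken from the top of the limma ranking after their values were seen.

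The regions that fell were mostly repeats. Of the 35 promoters that fell, 31 (88.6%) lay mostly in repeats, 16 of them in the first assembled stretch of chromosome 9, and of the 96 distal regions 74 (77.1%) did. Of those that rose, 3 of 1874 promoters and 2 of 33 distal regions did. Over all shared regions it was 1.73% of promoters and 30.6% of distal regions. The chromosome 9 region at Gm10717 (chr9:3031732-3032779) stood at 70.0 and 68.3 at P7 and at 27.9 and 28.2 at P14 (log2 difference -1.30). The distal region nearest to Nbea, all repeat, stood at 21.2 and 21.6 at P7 and at 7.39 and 6.92 at P14 (log2 difference -1.58). With regions mostly in repeats left out, 1871 promoters rose and 4 fell, 31 distal regions rose and 22 fell, and the medians were 0.61 and 0.09.

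Shared promoters were also covered more widely at P14. The bases covered by peaks within a shared promoter had a median of 518 and 584 bp at P7 and of 959 and 902 bp at P14. Both P14 lists covered more than both P7 lists at 3302 of 5198 shared promoters (63.5%) and less at 104 (2%). At shared distal regions they covered more at 255 of 1020 (25%) and less at 170 (16.7%), and the medians were 444 and 470.5 bp at P7 and 516 and 481.5 bp at P14.

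At the level of genes, 2689 of 55413 annotated genes (4.85%) had a gained promoter peak and 147 (0.265%) a lost one. This counts peaks whose summit lies within 3000 bp of any start site of the gene, and such a peak can lie nearer to another gene. Of 21938 protein-coding genes, 1739 (7.93%) gained one, 71 (0.324%) lost one, 6452 had one in all 4 lists and 7661 in none. In both P7 lists 6785 protein-coding genes (30.9%) had a promoter peak, and in both P14 lists 10731 (48.9%). Of the 6452 genes in all 4 lists, 5104 (79.1%) had both P14 heights above both P7 heights and 79 (1.22%) had both below. At equal list length 1015 protein-coding genes (4.63%) gained and 182 lost a peak. Over all annotated genes, gained genes numbered 4796 without P7 replicate 2 and 5376 and 5047 without P14 replicates 1 and 2, and lost genes 851, 877, 417 and 307 without P7 replicates 1 and 2 and P14 replicates 1 and 2.

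**Figure D4:**
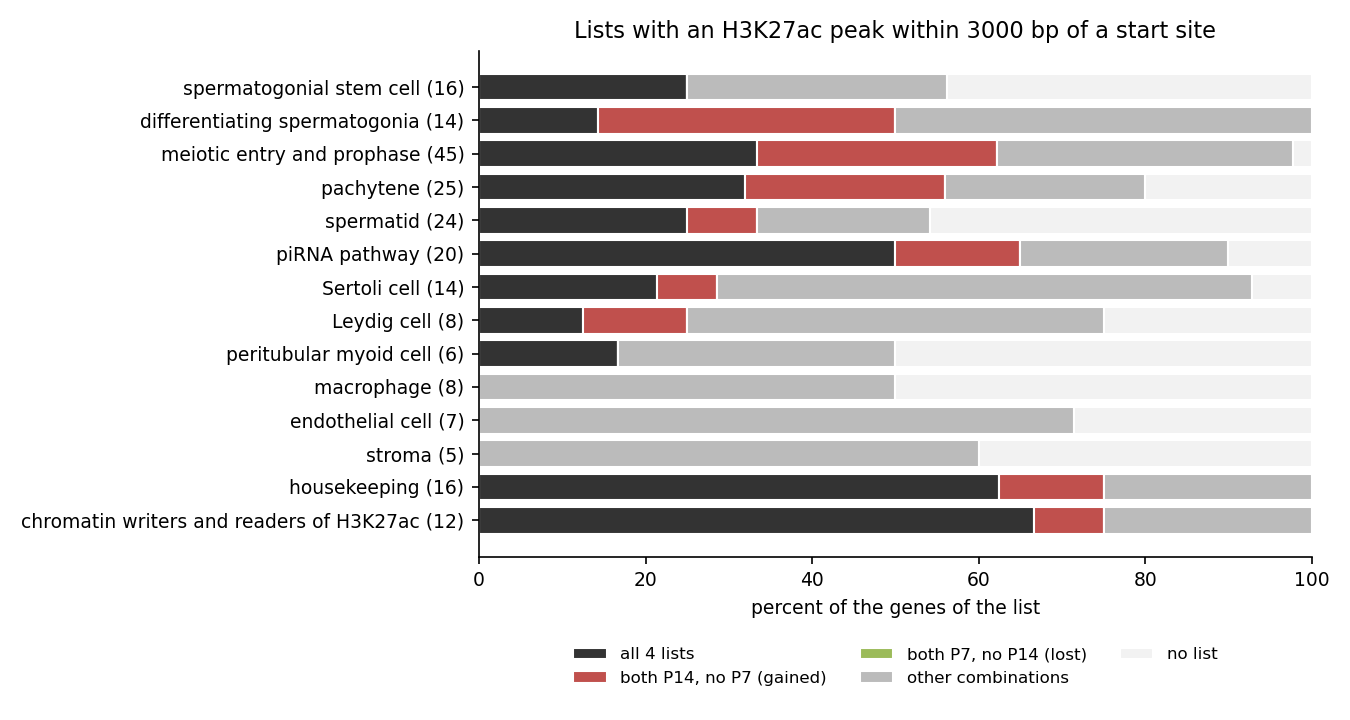
Percent of the genes of each list (number of genes in brackets) by the H3K27ac lists that hold a peak within 3000 bp of a start site: all 4, both P14 and no P7 (gained), both P7 and no P14 (lost), other combinations, or none. Meiotic entry and prophase shows 15 genes in all 4 lists, 13 gained and 1 in no list, while no list of marker genes has a lost gene.

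At genes of meiotic entry and prophase, many promoter peaks were called at P14 only. Of 45 such genes, 16 had a promoter peak in both P7 lists and 42 in both P14 lists, where 30.9% and 48.9% of protein-coding genes did. Of the 45, 13 were gained, none was lost, and 15 were in all 4 lists, where 7.93% of all protein-coding genes were gained and 29.4% were in all 4 lists. The gained genes include the retinoic acid target Stra8 (P14 heights 11.4 and 12.4) and the meiotic cohesin subunits Rec8 (7.39 and 9.40) and Rad21l (9.09 and 5.44). The double-strand break factors Mei4 (9.09 and 8.90) and Ankrd31 and the recombinase Dmc1 (11.4 and 8.90) were gained as well. So were the synaptonemal complex components Syce3 (9.66 and 8.41) and Tex12 (9.09 and 5.44). The other 5 were Spata22, Msh5 (13.6 and 10.9), Rnf212, Tex11 (5.12 and 4.95) and Majin (10.2 and 10.4), which act in recombination, crossing over and the attachment of telomeres. At equal list length 13 meiotic genes were gained, 12 of them the same, with Rec8 replaced by 4930432K21Rik.

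The meiotic genes with peaks in all 4 lists were also higher at P14. Over these 15 the median height was 6.47 and 7.19 at P7 and 14.2 and 13.8 at P14, and in 15 of 15 both P14 heights were above both P7 heights, as in 79.1% of all protein-coding genes in all 4 lists. For all such protein-coding genes the medians were 8.23 and 8.99 at P7 and 14.8 and 11.9 at P14. For 11 of the 15 a shared promoter region lay nearest to the gene, and the closest such region was tested. The rest of the 15, among them Spo11 and Hsf2bp, had no such region, so their peaks may lie nearer to another gene. Of the 11 tested regions 9 rose, where 36.1% of all shared promoters rose. The median log2 difference was 1.01, or 0.48 relative to the overall shift, where the median of all shared promoters was 0.07. Sycp1, the transverse filament of the synaptonemal complex, stood at 6.47 and 6.59 at P7 and at 18.2 and 12.9 at P14 (log2 difference 1.23, SE 0.28, limma adjusted p = 0.00810). Sycp2, a component of its lateral elements, stood at 6.47 and 5.39 against 16.5 and 14.3 (1.38, adjusted p = 0.00605). Terb1, which anchors telomeres to the nuclear envelope in meiosis, stood at 6.47 and 4.79 against 14.2 and 18.3 (1.53, adjusted p = 0.00366). Relative to the overall shift Sycp2 (limma adjusted p = 0.0430) and Terb1 (adjusted p = 0.0243) still passed, and the other genes of the 14 lists did not.

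Of 14 markers of differentiating spermatogonia, 3 had a peak in both P7 lists and 10 in both P14 lists, where 30.9% and 48.9% of protein-coding genes did, and 5 were gained, where 7.93% of protein-coding genes were. Kit stood at 11.4 and 6.43 in the P14 lists, and the transcription factors Sohlh1 at 9.09 and 8.90, Sohlh2 at 6.82 and 6.92 and Dmrtb1 at 9.66 and 9.40, with Stra8 as above. The same 5 genes were gained at equal list length. With peaks of q at most 0.01 alone 4 of the 14 were gained, without Kit, where 17.3% of protein-coding genes were. Dmrt1, a factor that holds spermatogonia out of meiosis, was in all 4 lists (9.99 and 6.59 at P7, 18.2 and 13.8 at P14). Of 16 genes of spermatogonial stem cells, none was gained or lost, 4 were in all 4 lists and 7 in none, where 7.93% of protein-coding genes were gained, 29.4% were in all 4 lists and 34.9% in none. With peaks of q at most 0.01 alone Etv5 and Cd82 were gained. Gfra1 and Ret, the receptor for GDNF, had no peak in any list. Of the 4, Etv5 (limma adjusted p = 0.0314) and Taf4b (adjusted p = 0.0102) rose, where 36.1% of all shared promoters did, and neither passed relative to the overall shift.

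The piRNA pathway, which silences transposons in germ cells with small RNAs, showed 3 gained genes of 20 (against 7.93% of all protein-coding genes) and 10 in all 4 lists. The gained ones were Piwil1 (5.68 and 4.45), Asz1 (6.25 and 4.95) and Henmt1 (11.9 and 7.91), the methyltransferase of piRNA ends. At equal list length 2 were gained, Asz1 and Henmt1, where 4.63% of protein-coding genes were. Piwil1 was not gained at equal list length, at q at most 0.01 or at a height of at least 5. In 9 of the 10 both P14 heights were above both P7 heights (against 79.1% of all such genes). Of the 9 that could be tested 8 rose (against 36.1% of all shared promoters), with a median log2 difference of 1.01 (0.48 relative to the overall shift). The helicase gene Ddx4 stood at 5.29 and 5.39 at P7 and at 14.8 and 11.4 at P14 (1.28, limma adjusted p = 0.00687). Mov10l1 (1.31, adjusted p = 0.00668) and Tdrkh (1.32, adjusted p = 0.00676) rose as well, but none of the 8 passed relative to the shift.

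Of 25 pachytene genes 8 were in all 4 lists and 6 were gained (against 7.93% of all protein-coding genes), namely Piwil1, the mRNA-binding protein gene Ybx2 (11.9 and 12.9), Rfx4, Adad1 (12.5 and 8.41), Spag6l and the X-linked Ott, which has near-identical copies and is uncertain. Cut to equal length, the lists left 3, Ybx2, Adad1 and Ott. Of the 8 tested 4 rose (against 36.1% of all shared promoters), with a median log2 difference of 0.69, or 0.16 relative to the overall shift. The 8 differences ran from that of the cold shock protein gene Ybx3 (7.64 and 7.79 against 7.96 and 5.93, log2 difference -0.17, limma adjusted p = 0.622) to that of the chaperone gene Hspa2 (5.29 and 7.79 against 17.6 and 12.9, log2 difference 1.23, limma adjusted p = 0.00907). Pgk2, Ccna1, Aurkc, Cetn1 and Tdrd6 had no peak in any list. Of 24 spermatid genes 11 were in no list (against 34.9% of protein-coding genes), including the protamine genes Prm1, Prm2 and Prm3 and the transition protein gene Tnp1, and 2 were gained, the sperm sheath gene Akap3 (4.55 and 5.44) and Pgam2 (6.25 and 6.43), a share near the 7.93% of all protein-coding genes. The 6 in all 4 lists all had both P14 heights above both P7 heights, against 79.1% of all such genes. They include the transition protein gene Tnp2 (8.23 and 7.79 against 14.8 and 10.9), with 0 TPM in every WT P7 RNA library. No shared promoter region had Tnp2 as its nearest protein-coding gene, so its peaks may belong to a neighbour. Such a region was found for 3 of the 6, Odf2, Catsper2 and Hook1. No spermatid gene was gained at equal list length.

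Markers of somatic cells were called at both ages. Of 14 Sertoli genes 8 and 8 had a peak in the P7 lists and 9 and 11 in the P14 lists, with median heights of 7.05 and 7.19 against 7.39 and 6.43. In both lists of an age there were 6 at P7 and 7 at P14, where 30.9% and 48.9% of protein-coding genes were. Sox9, the Sertoli cell determinant, was the 1 gained gene (5.68 and 5.44), a share near the 7.93% of all protein-coding genes, Rhox5 was in no list, and Amh was in 1 P14 list (11.4). Aard, Kitl and Gdnf were in all 4 lists, and Gdnf had both P14 heights (4.55 and 4.95) below both P7 heights (5.29 and 5.99). No Sertoli gene was gained and 4 were lost at equal list length, Fshr, Clu, Gdnf and Nr5a1, where 4.63% of protein-coding genes were gained and 182 of 21938 lost. Of 8 Leydig genes the lists held 2 and 4 at P7 and 4 and 6 at P14, with Lhcgr gained (5.68 and 3.46) and Insl3 in none, where 7.93% of protein-coding genes were gained. In both lists of an age there was 1 Leydig gene at P7 and there were 4 at P14, against 30.9% and 48.9% of protein-coding genes. Of 6 peritubular genes only Acta2 was in both lists of an age, and it rose (5.88 and 6.59 against 12.5 and 11.9, limma adjusted p = 0.0170). None of 8 macrophage, 7 endothelial and 5 stroma genes was in both lists of either age, where 30.9% of protein-coding genes were at P7 and 48.9% at P14. The paper reports mostly germ cells in the P7 filtrate, and the part of somatic cells in the differences above was not tested.

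Housekeeping genes shared part of the pattern. Of 16, 11 were in both P7 lists and 14 in both P14 lists, and the gained 2 (against 7.93% of all protein-coding genes) were Hprt (9.66 and 5.93) and the peptidyl-prolyl isomerase gene Ppia (16.5 and 13.4). With peaks of q at most 0.01 alone 7 of 16 housekeeping genes were gained, 25 of 45 meiotic and 10 of 20 piRNA genes, against 17.3% of all protein-coding genes. In the 10 with peaks in all 4 lists the median height was 10.3 and 10.8 at P7 and 18.8 and 16.8 at P14, with both P14 heights above both P7 heights in 10 of 10 (against 79.1% of all such genes). Of the 8 tested 4 rose (against 36.1% of all shared promoters), with a median log2 difference of 0.68, or 0.15 relative to the overall shift. Of 12 genes whose products write, read or erase H3K27ac, 8 were in all 4 lists (against 29.4% of protein-coding genes) and Kat2a was gained (6.25 and 7.42), a share near the 7.93% of all. None of the 7 tested passed, Ep300 among them (15.3 and 11.99 against 18.2 and 17.8, limma adjusted p = 0.189), where 36.1% of all shared promoters rose. Their median log2 difference was 0.41, which became -0.12 relative to the overall shift.

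RNA of the same series tells how these genes were expressed at P7, from 3 bulk testis and 2 Smart-seq2 libraries of sorted spermatogonia. The sorted spermatogonia came from controls with a Ddx4-GFP-CreERT2 allele and a heterozygous floxed Prmt1, and the RNA samples were taken after tamoxifen. P14 RNA was not analysed here. Protein-coding genes with a gained peak had a median of 11.04 TPM in testis and 7.41 TPM in spermatogonia, and 72.7% reached 1 TPM in spermatogonia. Genes with peaks in all 4 lists had medians of 34.6 and 31.97 TPM (93.2% reached 1 TPM), and genes with a peak in none 0.02 and 0 TPM (11.1%). The 71 genes with a lost peak had 4.19 TPM in testis and 0.04 TPM in spermatogonia (35.2%).

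Gained meiotic genes already had RNA in spermatogonia at P7. Each had a mean above 1 TPM, from 8.41 TPM for Rad21l to 529.3 TPM for Syce3, where 72.7% of all protein-coding genes with a gained peak reached 1 TPM. Ankrd31 had 57.8 and 83.8 TPM in the spermatogonia libraries and 4.81 to 5.19 TPM in testis. Msh5 had 42.8 and 66.7 TPM in spermatogonia and 2.44 to 7.01 TPM in testis, so both were higher in every sorted library than in every testis library. Stra8 had 131.3 and 62.9 TPM in spermatogonia and 95.1, 139.4 and 131.5 TPM in testis, which overlap. Kit had 73.0 and 57.4 TPM in spermatogonia and 47.4 to 54.6 TPM in testis. Piwil1 was low, with 3.18 and 0.97 TPM in spermatogonia and 1.67 to 3.15 TPM in testis.

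On the X chromosome, which is silenced in pachytene spermatocytes, promoter peaks were fewer than on autosomes at both ages and were gained at a larger share of genes. Of 948 protein-coding X genes 17.6% and 21.7% had a promoter peak in the P7 lists and 42.5% and 42.3% in the P14 lists. Of 20807 autosomal genes it was 39.1% and 42.0% at P7 and 57.2% and 56.2% at P14. Gained peaks were found at 131 X genes (13.8%) and 1602 autosomal genes (7.70%), and on single autosomes the share ran from 4.37% to 10.4%. Peaks in all 4 lists were found at 116 X genes (12.2%) and 6330 autosomal genes (30.4%). Gained shares at equal list length were 10.02% and 4.41%, and with peaks of q at most 0.01 alone they were 19.2% and 17.3%. The X held 1.47% and 1.61% of the peaks at P7 and 1.95% and 2.11% at P14 (difference 0.488 percentage points, exact permutation p = 0.333, the smallest possible). Heights of X promoter peaks had medians of 5.29 and 5.99 at P7 and of 7.39 and 6.43 at P14. These were below the autosomal medians of 7.64 and 8.39 and of 11.9 and 9.89. Male cells hold a single X, and neither calls nor heights were scaled for copy number. The part of copy number in these X differences was not tested.

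**Figure D5:**
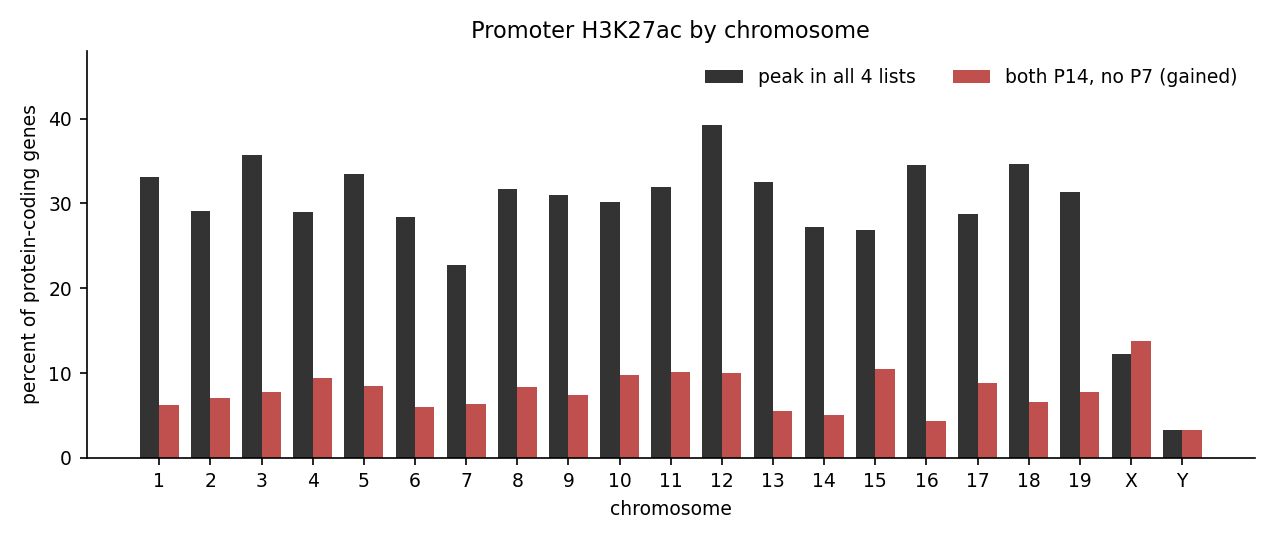
Percent of the protein-coding genes of each chromosome with a promoter H3K27ac peak in all 4 lists (black) or gained at P14 (red). The X chromosome has 12.2% in all 4 lists and 13.8% gained, and the autosomes lie between 4.37% and 10.4% gained.

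Distal peaks were assigned to the protein-coding gene with the nearest start site, which need not be the gene they act on. The 2425 gained distal regions had 2012 nearest genes at a median distance of 19.02 kb, with 77.4% within 50 kb. Of these genes 8.30% also had a gained promoter peak, against 8.46% of the genes nearest to any distal region, a share near the background. The nearest genes had a median of 18.1 TPM in testis and 8.06 TPM in spermatogonia, against 12.5 and 5.24 TPM for genes nearest to any distal region. The 638 lost distal regions had 597 nearest genes, a median distance of 22.7 kb and medians of 16.5 and 5.29 TPM.

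Of 21938 protein-coding genes, 1634 (7.45%) were the nearest to a gained distal region within 50 kb and 423 (1.93%) to a lost one. Among genes of the 14 lists, gained ones lay nearest to Kit, Dmrt1, Dnmt3b, Nanos3 and Rarg of differentiating spermatogonia and to Sall4, Zbtb16 and Tspan8 of stem cells. One gained region each lay nearest to Tex15 among 45 meiotic genes, to Rfx3 and Tbpl1 among 25 pachytene genes, to Hook1 and Odf1 among 24 spermatid genes and to Piwil4, Spocd1 and Tdrd9 among 20 piRNA genes. Myh11 of peritubular cells, Col1a1 of stroma and the housekeeping gene Eef1a1 had one as well. Kitl, which encodes the ligand of Kit in Sertoli cells, had 3. Brdt, Chd4 and Hdac2, of the genes that write, read or erase H3K27ac, were among those with gained distal regions, and lost ones lay near Gata4, Cyp17a1 and Lum. The gene with most was Scml2, an X-linked Polycomb protein of the germline, with 5 gained distal regions within 50 kb besides a gained promoter. Scml2 RNA at P7 stood at 84.8 TPM in testis and 428.2 TPM in spermatogonia.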

How the data were processed

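Cells of WT testis at P7 and P14 were profiled by CUT&Tag for H3K27ac (2 lists per age). The authors trimmed reads with fastp 0.23.2 and called peaks per sample on mm10 with MACS2 2.1.0 (p threshold 0.005 in the peak names), and the aligner is not given in the sources used here. The deposited lists give each peak a fold enrichment, which is a ratio to local background, and −log10 p and q values. The authors made TPM values of the P7 RNA libraries with RSEM. Read depth was not given, but ratio and p together gave whole pileups for 100% of peaks (tolerance 0.0001), with background floors of 1.70 and 1.67 reads at P7 and 1.76 and 2.02 at P14, which follow depth. The smallest pileup called at the floor was 6 in each list. Height is pileup over floor.

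Peaks off the main chromosomes (0.196 to 0.592%) were left out. Peaks overlapping by 1 bp or more were merged, and annotation was GENCODE M21. Peak numbers, widths and shares were compared by two-sided exact permutation tests. Heights were fitted by limma 3.58.1 (R 4.3.3) on log2 height with a variance trend and Benjamini-Hochberg adjustment. These fits are conditional on a call in all 4 lists, and they were added after seeing the data, as were the settings of height of at least 5 and of repeats left out. In a single simulated draw of heights for the 6218 regions, with few regions changed, the fit recovered 30% of 2-fold and 98% of 4-fold increases. It recovered 54% and 98% of decreases of the same sizes, and that difference by direction holds for this draw only. The draw had Poisson noise alone, without further spread between lists or selection by calls, so recovery in the real lists is not known.

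Members and lists were chosen with earlier results of these data known. The lists hold 220 genes in 14 lists. Gained or lost genes of each list were named (8 per list by list order, others after seeing values), as were the 6 strongest gained and lost promoter and distal regions by rank of −log10 p, and for sequences, regions on chromosome 18 and 2 windows touching annotated UTRs were passed over. TPM was matched by gene ID for 55104 of 55413 genes. In all, 144 alternative values were computed.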

Additional observations from a re-analysis of the deposited data

How the results depend on the processing

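Of 144 alternative values for 17 results, 79 kept their direction and their side of the threshold (counts within 1.5 times), 62 moved and 3 reversed. The promoter share, P14 minus P7, reversed at equal list length (10.1 percentage points against -3.76). The difference in median distal width reversed among peaks of q at most 0.01 (-39.8 against 3.25 bp), and leaving out each replicate in turn gave -0.75 to 7.25 bp. Recurrence at P7 was 30.5% at q at most 0.01, 15.3% with 200 bp around the summit, 28.0% at a height of at least 5, and 22.7 to 22.9% with one P14 list left out. At P14 it was 35.6%, 15.4% and 31.3% under the first 3 settings, and 33.2% at equal list length. At q at most 0.01 there were 933 gained distal, 13 lost promoter and 69 lost distal regions, and 4938 genes gained and 9 genes lost. At equal list length there were 1637 gained promoter, 697 gained distal and 338 lost promoter regions, and 1421 genes gained and 326 lost. A promoter window of 1000 bp left 110 lost promoters and 81 lost genes. With 200 bp around the summit 614 promoters were lost. A height of at least 5 left 1360 gained distal regions, and leaving out repeats left 414 lost distal regions. With one replicate left out, which loosens the definition, gained promoters ranged from 4018 to 10633, gained distal regions from 2915 to 21220, lost promoters from 376 to 2792, lost distal regions from 951 to 7533, gained genes from 4029 to 5376 and lost genes from 307 to 877.

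For heights in shared regions, centring each list on its median left 33 promoters higher and 85 lower, and 1 distal region higher and 244 lower. Leaving out repeats left 4 promoters and 22 distal regions lower. With one replicate left out, where the lone list is assumed to vary like the others, promoters higher ranged from 58 to 3016 and lower from 13 to 55, and distal regions higher from 1 to 75 and lower from 18 to 159. Lists of the same number deviated together with a correlation of 0.049 over 2 pairs, so the numbers were not taken to pair them. With a replicate block 1577 promoters rose and 35 fell, 31 distal regions rose and 96 fell, and the differences in peaks (19056), promoter share, widths and X share stayed the same, with a smallest exact permutation p of 0.5. With 2 lists per age no exact test could pass 0.05, and regions near the calling threshold can differ between lists through depth alone.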
